A study of Mus musculus with 7 samples.

Results

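Regions called open in both delta libraries and in no alpha or beta library are described here. The distinct peaks of 7 ATAC-Seq libraries, in which a transposase cuts accessible DNA, were merged wherever they overlapped by at least 1 bp. The members were chosen by the peak calls themselves: a region had to hold a peak in both delta libraries and none in the other 5. Of 834695 merged regions 2750 were members, which is 0.329% of them and 2.06% of the 133698 regions called in at least 2 libraries. These percentages come from the rule, so they are a description and carry no test. The members are called delta-only regions below, and "open" means that a peak was called.

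The libraries came from islet endocrine cells of healthy mice, sorted by fluorescence into 2 alpha, 3 beta and 2 delta samples labelled as biological replicates. All mice carried mIns1-H2b-mCherry, a red nuclear label driven by the Ins1 promoter that marks beta cells, and Rosa-LSL-YFP, a yellow label that a Cre recombinase switches on. Sst-Cre, active where somatostatin is or was expressed, labelled the delta cells, and Gcg-Cre labelled the alpha cells. Mice were pooled by sex for each sample, and strain and age are not given in the sources used here. Cell types were sorted from the same animals, so beta samples share mice with alpha or delta samples, and the labels do not say which of the crosses gave each beta sample. A sort by Cre labels every cell with past Cre activity, and in a bulk sample fewer open cells and less open DNA per cell cannot be told apart.

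Delta cells secrete somatostatin, which restrains the release of insulin and glucagon from neighbouring cells. They arise from the same endocrine progenitors as alpha and beta cells, and the homeobox factor Hhex is needed for their identity. Open DNA outside promoters often holds enhancers, which bind transcription factors and act on genes at a distance.

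The peak lists hold no reads outside peaks, so depth was not computed from them and no limit was set on an absent peak. The sequencing totals of the study give delta 2 fewer sorted cells and fewer unique reads than delta 1, with delta 1 from female and delta 2 from male mice, and give beta 1 the fewest unique reads of the 7. Depth, cell number and sex thus cannot be told apart between the delta libraries. The lists held between 75860 peaks in delta 2 and 518503 in beta 1, and the lowest -log10 p was 2.01 in each of the 7. In beta 1, 5.0% of the peaks reached a -log10 q of 2, against 29.8% to 54.9% in the other libraries. The names of the 3 beta lists carry another cell type than the labels, alpha in 1 of them and delta in 2. The labels were followed, so every statement about beta libraries rests on them, as does the absence of beta peaks in members. The lists of alpha 1, alpha 2 and beta 1 also carry another lane mark than the other 4. In comparisons of delta-only with alpha-only regions, lane mark and cell type cannot be told apart.

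The sequences around 8 delta-only regions are shown first, because they carry the values and the short motifs that the later paragraphs describe. Each is 300 bp centred on the summit of its stronger peak, read 5' to 3' from the plus strand of GRCm38.p6. Capitals mark matches, on either strand, to a panel of 19 short transcription factor motifs. The first 4 belong to the regions ranked 1, 2, 3 and 5 by peak strength in both delta libraries. They lie at chr11:28636789-28637088, between genes with Ccdc85a nearest, at chr9:91088466-91088765, in a gene desert nearest to Zic4, at chr8:23036747-23037046, inside the cytoskeletal adaptor gene Ank1, and at chr5:48448938-48449237, in an intron of the potassium channel subunit gene Kcnip4.
Rank 1: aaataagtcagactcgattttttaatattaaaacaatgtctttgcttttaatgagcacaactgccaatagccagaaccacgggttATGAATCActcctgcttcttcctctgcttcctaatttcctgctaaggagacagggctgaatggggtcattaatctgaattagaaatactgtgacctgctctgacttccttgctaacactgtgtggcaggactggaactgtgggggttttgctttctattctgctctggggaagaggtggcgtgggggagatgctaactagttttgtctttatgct
Rank 2: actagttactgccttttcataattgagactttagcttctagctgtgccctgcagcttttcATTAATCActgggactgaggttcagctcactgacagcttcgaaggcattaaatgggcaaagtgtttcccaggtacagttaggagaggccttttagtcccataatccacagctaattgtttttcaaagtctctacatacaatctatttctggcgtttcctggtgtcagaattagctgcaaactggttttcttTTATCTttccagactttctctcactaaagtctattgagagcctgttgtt
Rank 3: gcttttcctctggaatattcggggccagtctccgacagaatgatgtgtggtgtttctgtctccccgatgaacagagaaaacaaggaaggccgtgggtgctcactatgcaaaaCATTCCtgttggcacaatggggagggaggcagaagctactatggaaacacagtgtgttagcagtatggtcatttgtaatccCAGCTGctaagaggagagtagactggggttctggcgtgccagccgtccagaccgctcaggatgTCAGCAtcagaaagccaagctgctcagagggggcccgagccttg
Rank 5: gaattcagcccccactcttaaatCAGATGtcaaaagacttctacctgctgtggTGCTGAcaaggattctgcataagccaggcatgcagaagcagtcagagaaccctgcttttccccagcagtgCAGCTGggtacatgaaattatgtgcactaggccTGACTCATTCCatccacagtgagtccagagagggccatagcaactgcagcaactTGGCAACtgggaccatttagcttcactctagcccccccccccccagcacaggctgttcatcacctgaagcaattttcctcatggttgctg

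The next 3 are the strongest delta-only regions near Sst, Hhex and Rbp4, genes that mark delta cells. They lie at chr16:23896652-23896951, at chr19:37442658-37442957 and at chr19:38120132-38120431. The last, at chr7:57387246-57387545, covers the region at the 5' end of Gabrg3, the strongest, by the lower of its percentiles in the 2 delta lists, of the delta-only regions at the start of a protein-coding gene, and was added after its value was seen.
Near Sst: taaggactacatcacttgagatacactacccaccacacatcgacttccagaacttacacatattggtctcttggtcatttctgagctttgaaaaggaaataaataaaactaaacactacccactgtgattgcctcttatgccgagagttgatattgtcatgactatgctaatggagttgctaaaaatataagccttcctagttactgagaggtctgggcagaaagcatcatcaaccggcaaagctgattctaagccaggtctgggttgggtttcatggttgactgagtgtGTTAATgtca
Near Hhex: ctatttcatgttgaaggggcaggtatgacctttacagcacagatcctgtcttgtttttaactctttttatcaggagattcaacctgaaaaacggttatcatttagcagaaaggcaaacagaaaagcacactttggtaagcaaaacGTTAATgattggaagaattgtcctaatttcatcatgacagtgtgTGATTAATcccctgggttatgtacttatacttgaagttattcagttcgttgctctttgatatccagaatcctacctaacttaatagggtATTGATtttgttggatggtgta
Near Rbp4: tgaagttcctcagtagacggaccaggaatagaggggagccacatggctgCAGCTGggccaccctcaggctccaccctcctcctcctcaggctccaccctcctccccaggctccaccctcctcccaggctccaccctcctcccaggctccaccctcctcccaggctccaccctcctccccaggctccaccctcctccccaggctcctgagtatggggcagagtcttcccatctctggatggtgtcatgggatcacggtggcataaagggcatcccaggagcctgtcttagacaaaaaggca
At Gabrg3: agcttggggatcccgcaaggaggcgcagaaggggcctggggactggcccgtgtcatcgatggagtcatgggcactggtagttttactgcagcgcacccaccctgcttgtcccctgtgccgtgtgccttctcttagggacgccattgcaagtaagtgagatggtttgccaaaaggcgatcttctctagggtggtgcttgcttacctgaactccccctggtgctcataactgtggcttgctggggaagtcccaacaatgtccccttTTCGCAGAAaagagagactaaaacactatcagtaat

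The windows of ranks 1 and 2 each held a match to the PBX motif, that of rank 5 held a match to the RFX motif, and those near Sst and Hhex held the HNF1 motif. The Sst match lay near the end of its window. It was outside the 100 bp on either side of the summit that the motif shares below cover. The Hhex window also held a PBX match. The Rbp4 window consisted largely of a C-rich unit repeated in tandem. Of the 100 bp on either side of its summit 67.2% was repeat-masked and 67.7% was G or C, against a median GC content of 46.3% over the members.

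At Sst, the hormone gene itself, chromatin at the 5' end was called in both delta libraries and in beta 1, so this region was not a member. Its peaks had a -log10 p of 3.05 in delta 1, 3.19 in delta 2 and 5.11 in beta 1. Within 50 kb of Sst, 5 regions were called in both delta libraries. Of these 2 were delta-only, 2 were shared with beta 1 alone and 1 was open in all 7 libraries. The delta-only pair flanked the gene. One lay 5.63 kb upstream at chr16:23896584-23897011, with a -log10 p of 3.22 in delta 1 and 4.67 in delta 2. The other lay 4.06 kb downstream at chr16:23885223-23885510, with 4.58 and 3.81. Both were weak peaks, since each reached a -log10 q of 2 in 1 delta library and missed it in the other.

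Hhex had 1 delta-only region within 50 kb, 1.95 kb downstream at chr19:37442682-37442948, with a -log10 p of 5.85 in delta 1 and 4.34 in delta 2. A beta 1 peak with a -log10 p of 2.26 ended 0.044 kb away. The peaks over the 5' end of Hhex reached 15.3 in delta 1 and 7.92 in delta 2, and were called in alpha 2 (6.36) and beta 1 (2.26) too.

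Rbp4 encodes a retinol carrier that delta cells secrete, and Ffar4, its neighbour, encodes a receptor for long-chain fatty acids. Both genes had the same 2 delta-only regions within 50 kb. One lay in an intron of Rbp4 at chr19:38120106-38120387, with a -log10 p of 4.93 in delta 1 and 4.75 in delta 2. The other lay in an exon of Ffar4 at chr19:38107161-38107536, with 3.13 and 4.09. Stronger delta peaks near Rbp4 were shared. Those at its 5' end reached 8.77 and 15.9 in the delta libraries and 12.6 and 8.89 in the alpha libraries. Those about 7 kb upstream, at 8.16 and 9.92, overlapped a beta 1 peak of 2.26.

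**Figure D1:**
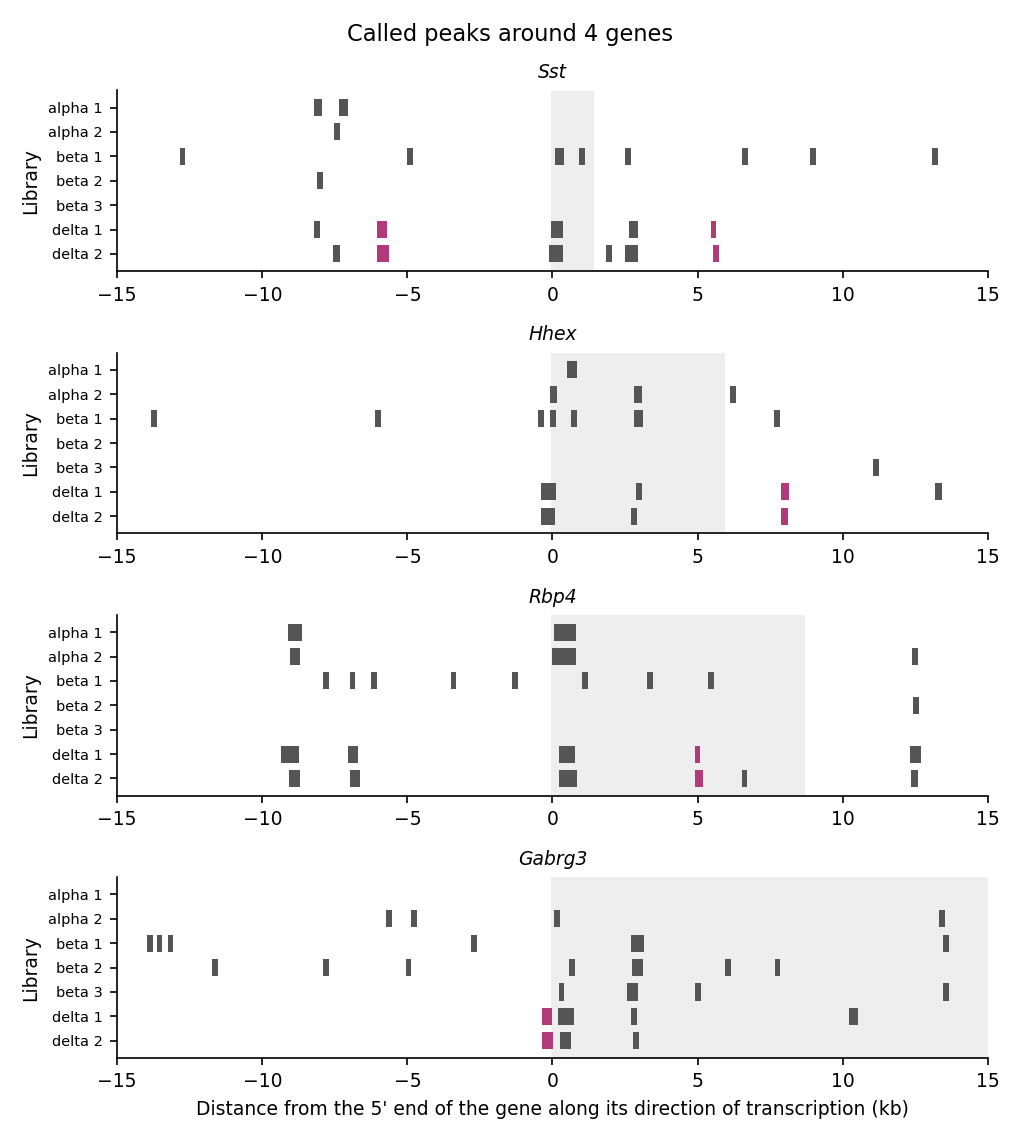
Called peaks of the 7 libraries within 15 kb of the 5' ends of Sst, Hhex, Rbp4 and Gabrg3, with distance along the direction of transcription in kb on the x axis and 1 line per library. Grey shading is the gene body, magenta boxes are peaks of delta-only regions and dark boxes are all other peaks. The 2 delta-only regions of Sst flank the gene, while the peaks at its 5' end are shared with beta 1.

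A strong delta-only region lay at the start of Gabrg3, which encodes a subunit of the GABA-A chloride channel. The region, chr7:57387187-57387554, lay just upstream of the gene, and only the edge of its delta 2 peak reached the 5' end. Its -log10 p was 10.9 in delta 1 and 10.8 in delta 2, and its fold enrichment over local background was 6.30 and 6.84. Alpha 2, beta 2 and beta 3 had other peaks within 1 kb of this start, the nearest 0.052 kb from the member. Just inside the gene both delta libraries had a further peak, at 10.8 in delta 1 and 9.59 in delta 2. That delta 1 peak overlapped those of alpha 2, beta 2 and beta 3, so its region was not delta-only. Ghsr, the ghrelin receptor gene, had 1 delta-only region 38.9 kb upstream, with values of 3.13 and 4.34. That region lay in an intron of Tnfsf10, whose start was nearer.

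Of the 14 delta marker genes 6, or 42.9%, had a delta-only region within 50 kb of the gene body, against 14.2% of 21938 protein-coding genes. The other 8, Ache, Ptprz1, Casr, Spock3, Cbln4, Lepr, Crhr2 and Drd2, had none. Spock3 had 3 regions open in both delta libraries and 1 other library, and Cbln4 had no region open in both. The 6 genes rest on 8 distinct regions, of which 6 lay within 10 kb. Alpha-only regions, called in both alpha libraries and in no other, lay near 5 of the 14 genes (35.7%), against 19.1% of all genes. Beta-only regions, called in at least 2 of 3 beta libraries and in no other, lay near 6 (42.9%), against 46.2%. These counts are of few genes, and no test was made. Without the beta 1 list 12 distinct regions met the rule near the 14 genes.

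Of the alpha markers 3 of 12 had a delta-only region within 50 kb (Ttr, Dpp10 and Smarca1), and of the beta markers 4 of 15 (Esr1, Iapp, Abcc8 and Kcnj11). Gcg, Irx1 and Irx2 of the alpha list were among those with none. The region in an intron of Ttr, the gene of the thyroid hormone carrier transthyretin, had a -log10 p of 4.42 in delta 1 and 9.58 in delta 2. Esr1, the oestrogen receptor gene, held 3 intronic members, the strongest with values of 6.68 and 8.67. Abcc8 and Kcnj11, which together encode the ATP-sensitive potassium channel, shared 1 weak member of 3.73 and 3.11. The lists that mark other cells of the pancreas are short, so their counts cannot be told from the 14.2% of all protein-coding genes. No acinar gene of 7 and no PP cell gene of 2 had a member. Of the duct genes 1 of 5 (20.0%) had one (Cftr), and of the endothelial, immune and stromal genes 1 of 11 (9.09%, Plvap).

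Of 26 islet transcription factor genes 7 (26.9%, against 14.2% of all protein-coding genes) had a member within 50 kb, with 1 region each. They were Pax4, Rfx6, Foxa1, Hnf4a, Onecut1, Smad3 and Prox1. In 5 of the 7 the region lay outside the gene, between 33.5 and 45.8 kb from it, and those of Pax4, Rfx6, Foxa1 and Hnf4a lay in or at another gene. The strongest in delta 1 was the one downstream of Onecut1, at 7.98 in delta 1 and 4.34 in delta 2. The Rfx6 region was 0.112 kb from the start of Gprc6a and 0.006 kb from a peak of another cell type. Hhex is described above, and neither Pdx1 nor Isl1 nor Pax6 had a member.

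Genes of secretion and of membrane excitability held some of the strong members inside their introns. Of 32 genes of the exocytosis machinery 15 (46.9%) had a member within 50 kb, with alpha-only regions near 10 (31.2%) and beta-only regions near 21 (65.6%). Over all protein-coding genes the 3 shares are 14.2%, 19.1% and 46.2%. These genes are long, with a median of 56.2 kb against 17.4 kb over all protein-coding genes. Syt1, the calcium sensor of synaptic vesicles, had 4 members. The strongest, an intronic region at chr10:108649159-108649913, had values of 9.45 and 11.4. Its 2 delta summits lay 461 bp apart in a region of 755 bp, against a median of 54.0 bp over the members. Pcsk2, the prohormone convertase that cuts many peptide hormones, had 3, the strongest an intronic region at percentile 86.3 of the delta 1 list and 75.2 of the delta 2 list. Nrxn3, which encodes a presynaptic adhesion molecule, had 3 as well, with no value above 7.08.

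Of 33 ion channel genes 10 (30.3%, against 14.2% of all genes) had a member, fewer than the 19 with an alpha-only region. Their median length was 252 kb. Kcnd2, a gene of an A-type potassium channel, had 3 members with values between 3.01 and 7.63. An intronic region of Cacna1h, a T-type calcium channel gene, was named after its value was seen. It lay at chr17:25405101-25405511 with a -log10 p of 16.4 in delta 1 and 11.4 in delta 2, and the nearest peak of another cell type was 7.19 kb away. Of 44 receptor genes 13 (29.5%) had a member, against the same background. Chrm4, a muscarinic acetylcholine receptor gene of 1.44 kb, had 3 in the neighbouring Dgkz, and Chrm3 had 2, the stronger of 7.98 and 4.34.

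Of 28 genes of cAMP signalling 10 (35.7%, against 14.2% of all genes) had a member, among them 2 regions each at Adcy2, Adcy8, Gnas, Pde4b and Pde7b. Adcy8, an adenylyl cyclase gene, held intronic regions of 10.7 and 5.76, and of 9.34 and 4.34. Of 36 axon guidance genes 11 (30.6%) had a member. Efnb2, which encodes an ephrin ligand, had 3, and the strongest, 2.10 kb from the 5' end of the gene at chr8:8658857-8659138, reached 13.4 in delta 1 and 10.7 in delta 2. Plxna4 and Unc5c, receptor genes of semaphorins and netrins, had 2 each. Of 28 adhesion genes 13 (46.4%) had a member, with 3 each in the catenin genes Ctnna3 and Ctnnd2, none above a value of 5.76.

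Over all genes the share with a member was higher for longer genes. Of the 4387 longest protein-coding genes, from 58.1 to 4435 kb, 27.8% had a delta-only region within 50 kb, against 8.98% of the 4388 shortest. Between the lists the shares also tended to be higher where genes were longer. The PP cell and acinar lists, with medians of 1.27 and 4.49 kb, had 0%. The adhesion list, with 148 kb, had 46.4%. The order was not strict, since the ion channel list, with the longest median of 252 kb, had 30.3%. The exocytosis list, with 56.2 kb, had 46.9%. The share of genes with an alpha-only region exceeded that with a delta-only region in the ion channel, receptor, adhesion and cAMP lists, as it did over all genes. It was below it in the exocytosis list, at 31.2% against 46.9%, and by 1 gene each in the delta and transcription factor lists. The part of gene length in these counts was not tested.

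The 10 protein-coding genes with most members within 10 kb were Tenm2 with 6, Gm20696, Snd1 and Exoc4 with 5 each, and Bbx, Zfp521, Syt1, Foxp1, Tenm3 and Nav2 with 4 each. Gm20696 overlaps Foxp1, and they share members. All 10 were long, between 241 and 1229 kb. Tenm2, which encodes a teneurin adhesion protein, spans 1229 kb and had 4 alpha-only and 4 beta-only regions as well. Zfp521, a zinc finger gene, had no alpha-only or beta-only region beside its 4 members, and these had values from 3.34 to 6.22 in delta 1 and from 3.94 to 5.76 in delta 2. Gm20745, a long noncoding RNA gene, had no member within 50 kb. The nearest lay 209 kb away, with values of 6.84 and 8.94.

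The members' peaks stood differently in the 2 delta lists. The median -log10 p was 4.24 in delta 1 (quartiles 3.13 and 5.42) and 4.34 in delta 2 (4.12 and 5.76), and the median fold enrichment was 3.58 and 3.36. The other peaks of each list had a median of 3.13 in delta 1, below the members, and of 5.45 in delta 2, above them. A -log10 q of 2 was reached by 38.4% of the members' delta 1 peaks and 41.6% of their delta 2 peaks, against 29.6% and 55.5% of the other peaks. It was reached in both libraries by 610 members (22.2%), in 1 by 979 (35.6%) and in neither by 1161 (42.2%). These values helped to choose the members, through the calls, and are a description. Many peaks had the same value, such as 3.13 in delta 1 and 4.34 in delta 2, since both lists move in steps. Over the members, the rank correlation of percentile by -log10 p between the delta libraries was 0.277. Over the 17759 regions open in all 7 libraries it was 0.845. Members and all-7 regions come from the same pair of libraries and differ in their range of values. The summits of the 2 delta peaks were a median of 54.0 bp apart in members and 24 bp in all-7 regions. Members were 200 to 810 bp wide with a median of 320 bp, and all-7 regions had a median of 710 bp.

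**Figure D2:**
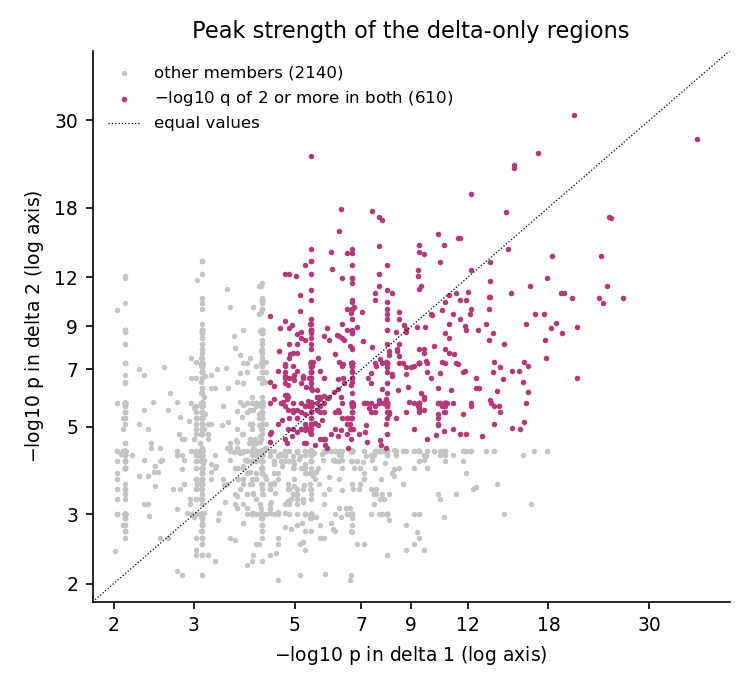
The -log10 p of each of the 2750 delta-only regions in delta 1 (x axis) and delta 2 (y axis), both on log axes, with the 610 members that reach a -log10 q of 2 in both libraries in magenta. The vertical and horizontal bands are values that many peaks share, and the 5 members at or above percentile 90 in both lists lie at the upper right.

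Only 5 members stood at or above percentile 90 in both lists. The first, at chr11:28636748-28637158, had a -log10 p of 38.1 in delta 1 and 26.8 in delta 2, with fold enrichments of 16.5 and 13.9. It lay 52.4 kb from the 5' end of Ccdc85a, and the nearest peak of another cell type was 2.31 kb away. The second, at chr9:91088401-91088912, reached 20.5 and 31.0, and the third, at chr8:23036646-23037089, reached 17.1 and 24.8. The third lay 1.42 kb from the start of an Ank1 transcript, and 61.8 kb from the 5' end of the Ank1 gene. The fourth, 36.6 kb from Fem1c, reached 15.1 and 22.7, and the fifth, in an intron of Kcnip4, reached 15.1 and 23.1. Of ranks 6 to 12, 1 lay in an intron of Pdia5, a gene of protein folding, and 6 were distal-intergenic. Their nearest genes were Cggbp1 at 26.7 kb, Mef2c at 125 kb, Epha6 at 280 kb, Gm9008 at 1425 kb, Pcdh10 at 1363 kb and Adcy2 at 52.9 kb. The -log10 p of these 7 ranged from 10.3 to 24.7 in delta 1 and from 15.1 to 19.5 in delta 2. Except for the Ank1 region, none of the 12 was promoter-proximal.

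The weakest members stood at the limit of the lists. At chr1:135728588-135728827 the values were 2.01 in delta 1 and 2.42 in delta 2, and at chr10:96623966-96624277 they were 2.04 and 3.28. Just outside the rule were 4056 regions open in both delta libraries and in 1 other. Of these 1494 (36.8%) were lost to beta 1 alone, whose peaks there had a median -log10 p of 2.26 and reached a -log10 q of 2 in 8.17% of cases. Without the beta 1 list 4257 regions met the rule, with 19.5% promoter-proximal, 38.6% intronic and 38.1% distal-intergenic. Alpha 2 accounted for 1202, alpha 1 for 633, beta 3 for 400 and beta 2 for 327. Of the 44888 regions called in both delta libraries 6.13% were members, 9.04% had 1 other library and 39.6% were open in all 7.

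Each delta list can also be read in the other. The regions found in both are the members themselves, so these shares describe the rule and support nothing beyond it. Of 78690 regions called in delta 1 and in no alpha or beta library, 3.49% (95% Wilson interval 3.37 to 3.63%) were called in delta 2. Of 19325 such regions of delta 2, 14.2% (13.7 to 14.7%) were called in delta 1. The share depended on the strength of the first peak. It was 1.64% for delta 1 peaks with a -log10 p of 2 to 3, 15.4% for 5 to 6, 60.1% (54.5 to 65.5%) for 8 to 12, and 82.1% (73.7 to 88.2%) for 12 or more, where 87 of 106 regions were called again. From delta 2 to delta 1 the shares were 8.21% for values of 2 to 3, 7.55% for 3 to 4 and 89.5% (78.9 to 95.1%) for 12 or more, the last being 51 of 57 regions. The intervals cover counting error alone, and neighbouring regions are not independent.

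**Figure D3:**
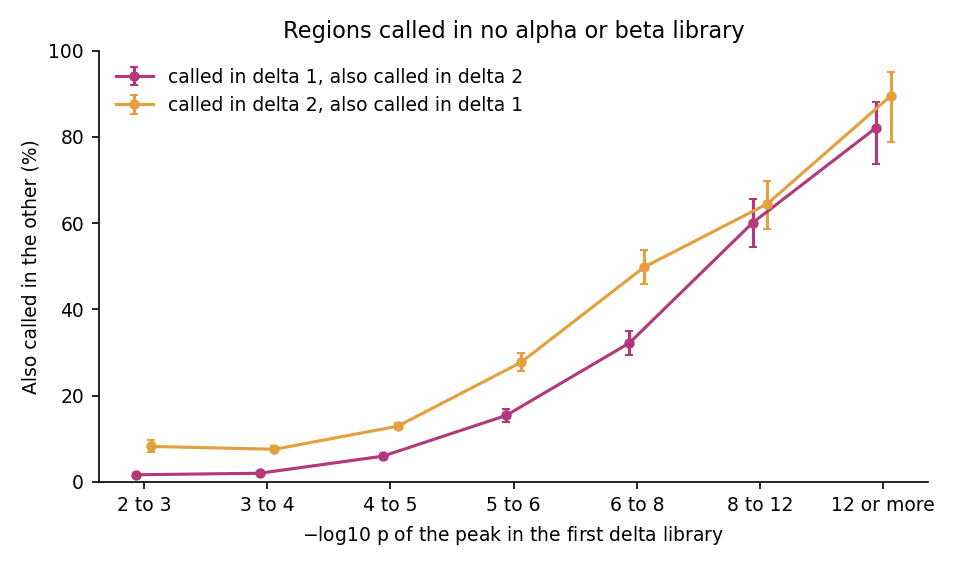
Share of regions called in 1 delta library and in no alpha or beta library that were also called in the other delta library (y axis, %), by the -log10 p of the first peak (x axis, binned). Points are shares and bars 95% Wilson intervals. In both directions the share is under 10% for values of 2 to 4 and above 80% for values of 12 or more.

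Regions called in exactly 2 libraries show how often each other library shared a delta peak. Delta 1 had 22816 such regions. Of these 11497 (50.4%) were shared with beta 1, the longest list, and 2750 (12.1%) with delta 2. Per 1000 peaks of the other list, delta 1 shared 36.3 with delta 2 and between 16.9 and 25.9 with each alpha or beta library. Delta 2 shared 17.4 per 1000 peaks with delta 1 and between 5.40 and 9.15 with each other library. In raw counts delta 1 shared more such regions with alpha 2 (2895) than with delta 2, and delta 2 shared more with beta 1 (2802) than with delta 1. A delta region called in several libraries of another cell type is not in these counts, while a region shared by the delta libraries cannot be lost in that way. The counts are of calls, the same measure the rule used, so nothing is read from their order.

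Position against genes was not used by the rule. Of the members 558 (20.3%, interval 18.8 to 21.8%) were promoter-proximal, meaning that any part of them lay within 3 kb of a transcript start. A further 1049 (38.1%, 36.3 to 40.0%) were intronic and 1037 (37.7%, 35.9 to 39.5%) distal-intergenic. Exons held 63, untranslated regions 38, and the 300 bp downstream of genes 5. The 3239 alpha-only regions had nearly the same makeup, with 21.7%, 37.4% and 36.9% in the first 3 classes, and each interval overlapped that of the delta-only regions. The 14335 beta-only regions were more often distal-intergenic, at 50.3% (49.5 to 51.1%), and less often intronic, at 29.9%. They follow a looser rule, 2 of 3 libraries. Regions open in all 7 libraries were promoter-proximal in 61.4% of cases. These regions were wider than members, with medians of 710 and 320 bp, and the part of width in these shares was not tested. Of all merged regions 16.2% were promoter-proximal and 49.0% distal-intergenic. Among regions called in at least 2 libraries, which the rule also asks of members, the shares were 26.9% and 38.4%. Members with a -log10 q of 2 in both delta libraries were promoter-proximal in 22.1% (19 to 25.6%) and the other members in 19.8% (18.1 to 21.5%), which overlap.

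**Figure D4:**
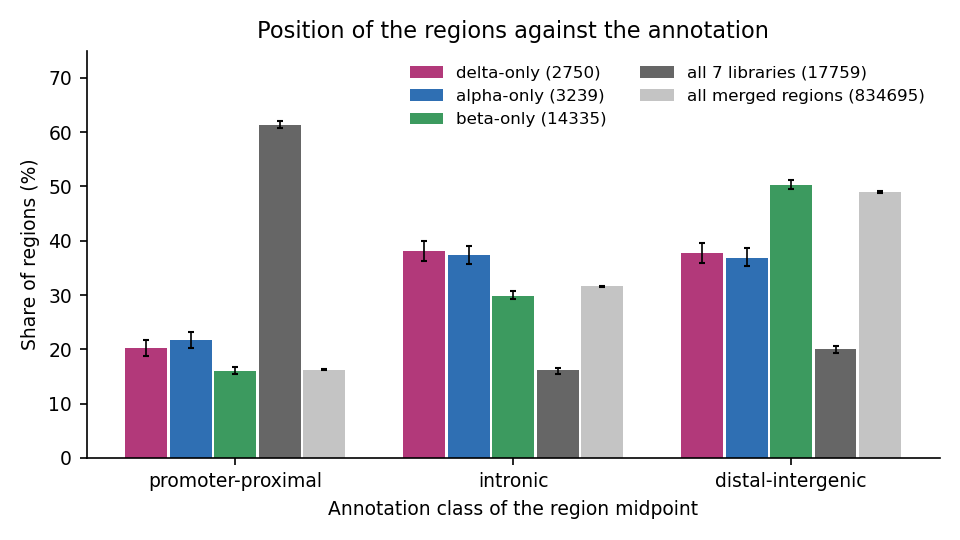
Share of regions (y axis, %) that are promoter-proximal, intronic or distal-intergenic among delta-only, alpha-only, beta-only and all-7 regions and all merged regions. Bars carry 95% Wilson intervals. Classes were assigned by any overlap of the region, although the x axis names its midpoint. The delta-only bars stand beside the alpha-only bars at similar height in each class, while the all-7 regions are mostly promoter-proximal.

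The median distance of a member to the 5' end of a protein-coding gene was 61.0 kb, against 50.1 kb for alpha-only, 88.4 kb for beta-only and 5.31 kb for all-7 regions. Within 1 kb of such an end lay 103 members (3.75%), and the end was inside the region in 21. The share within 1 kb was 5.84% in alpha-only, 1.91% in beta-only and 45.7% in all-7 regions. It was 11.1% in regions called in at least 2 libraries and 2.92% in all merged regions. At 32 of these 103 starts all 5 alpha and beta libraries had a peak of their own within 1 kb, as at Gapdh, a glycolytic gene, and Igf1r, a growth factor receptor gene, so that the member lay beside a shared promoter. At 17 starts no alpha or beta library had one. The genes given next were named after their values were seen. Cd47, which encodes a surface protein that inhibits phagocytosis, had values of 15.8 in delta 1 and 6.50 in delta 2. Nsg1, a gene of endosomal trafficking in neurons, had 10.9 and 7.68. Ppp1r17, a gene of a protein phosphatase inhibitor, had 9.30 and 5.65, and Iqcn had 8.85 and 6.32. The weaker ones included Timp1, a gene of a metalloproteinase inhibitor, at 3.13 and 5.26, and H2-Eb1, a gene of the class II antigen presentation complex, at 4.75 and 3.19.

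Members were spread over the genome. They numbered from 0.823 per sequenced Mb on chromosome 14 to 1.39 on chromosome 15 among autosomes, and 0.538 on the X chromosome, where alpha-only regions also stood at 0.538. Another member lay within 10 kb of 84 (3.05%). Runs of 2 or more members within 50 kb of each other numbered 210 and held 434 members (15.8%), against 15.5% of alpha-only regions. Among them 14 runs of 3 members held 42 in all, with no run of 4 or more. Peaks of other cell types were close. An alpha or beta peak lay within 1 kb of 54.8% of the members and within 0.5 kb of 36.0%, and the corresponding shares for alpha-only regions, measured to the peaks of the other 2 cell types, were 51.5% and 32.9%. A region open in all 7 libraries lay within 10 kb of 18.4%.

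Sequence at the summits was not used by the rule either. The window of 100 bp on either side of the summit had a median GC content of 46.3% in delta-only, 47.8% in alpha-only, 46.3% in beta-only and 57.7% in all-7 regions. Repeat-masked bases made up most of the window in 7.49% of members (6.57 to 8.54%). The share was 12.7% in alpha-only regions, 24.9% in beta-only regions, 27.9% in all merged regions, and 29.0% and 19.3% in regions called in delta 1 alone and delta 2 alone. It was 5.50% (4.84 to 6.24%) in regions open in both delta libraries and 1 other, and 2.57% in all-7 regions. Members thus held fewer repeat windows than regions of a single delta library, and more than these last 2 sets.

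Several short motifs were more frequent in delta-only regions than in alpha-only, beta-only, all-7 and all merged regions, with intervals that did not overlap. Motifs were searched by their exact letters on both strands, and a match is a description, not a bound site. The intervals were not adjusted for the 19 motifs searched. The RFX motif (GTTGCCA), bound by factors that include Rfx6 of the endocrine lineage, was in 6.51% of members (5.65 to 7.49%). It was in 3.21% of alpha-only regions (2.66 to 3.88%), 2.52% of beta-only regions, 3.96% of all-7 regions and 2.36% of all merged regions. The PBX motif (TGATTNAT), bound by partners of homeodomain proteins, was in 7.53% (6.60 to 8.57%), against 3.89% (3.28 to 4.61%) of alpha-only and 3.27% of beta-only regions. The homeodomain core (TAATTA), common to many islet factors, was in 7.85% (6.91 to 8.92%), against 4.14% (3.50 to 4.88%) and 5.50% (5.14 to 5.89%). The HNF1 motif (GTTAAT) was in 10.7% (9.56 to 11.9%), against 7.01% (6.18 to 7.94%) and 6.99%.

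The AP-1 motif (TGANTCA), bound by Fos and Jun proteins, was in 19.1% of members (17.7 to 20.6%), 15.9% of alpha-only regions (14.7 to 17.2%), 11.7% of beta-only regions and 8.17% of all merged regions. The HNF4 motif (CAAAGTCCA) was rare everywhere. It was in 23 members, or 0.836% (0.558 to 1.25%), against 0.309% (0.168 to 0.567%) of alpha-only and 0.298% of all merged regions, and the first 2 intervals overlapped by little. Other motifs were lower in delta-only than in alpha-only regions. The MAF motif (TGCTGA), bound by the large Maf factors, among them Mafa of beta cells, was in 17.7% (16.3 to 19.2%) against 24.1% (22.6 to 25.6%). The NEUROD E-box (CAGATG) was in 17.4% (16 to 18.9%) against 21.4% (20.0 to 22.8%). In beta-only regions these last 2 stood at 18.9% and 19.1%. The FOX motif (TGTTTAC), at 5.42% in delta-only and 5.22% in alpha-only regions, had overlapping intervals in these 2 sets, as had the motifs of NKX2 (CCACTTNA), of the GATA factors (AGATAA), of STAT (TTCNNNGAA), of TEAD (GGAATG), of ETS (CCGGAAG), of CREB (TGACGTCA) and of CTCF (CNAGGGGGC), and the CAGCTG E-box. The GC box (GGGCGG) was in 4.25% of members and 39.5% of all-7 regions. The ONECUT motif (ATTGAT) was in 8.47% of members (7.49 to 9.57%), an interval that holds its share of 9.22% in all merged regions, and part of its matches lie inside the PBX motif where its variable base is G. An AP-1 match can overlap a PBX match whose variable base is C, as in the window of rank 1.

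**Figure D5:**
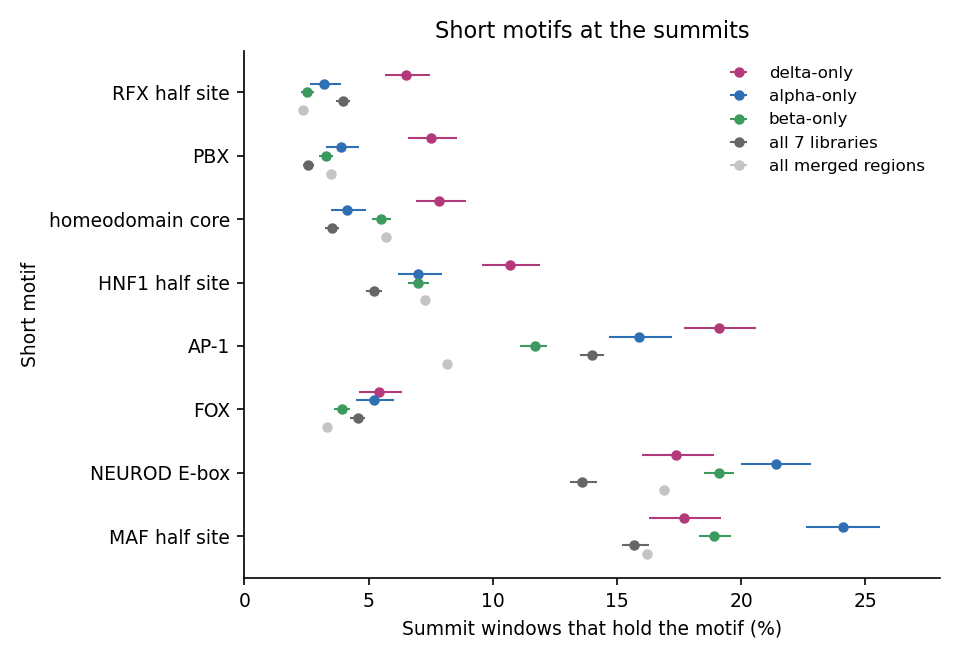
Share of windows of 100 bp on either side of the summit that hold each of 8 short motifs (x axis, %) in delta-only, alpha-only, beta-only, all-7 and all merged regions. Points are shares and bars 95% Wilson intervals. For the RFX, PBX, homeodomain core, HNF1 and AP-1 motifs the delta-only point lies to the right of the others, and for the NEUROD and MAF motifs it lies to the left of the alpha-only point.

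Regions seen in a single delta library held these motifs less often than members. The RFX motif was in 2.45% of regions of delta 1 alone and 3.23% of those of delta 2 alone, and in 7.20% of regions open in both delta libraries and 1 other. The PBX motif was in 3.36%, 4.07% and 5.13% of the same sets. In regions open in both delta libraries and 1 other, the set most like the members, the RFX share (6.44 to 8.04%) was thus as high as in members, and the intervals overlapped for the homeodomain core (7.84%), HNF1 (10.9%) and AP-1 (18.2%) too. The PBX share there (4.49 to 5.85%) was lower than in members. The motif shares also rest on both delta lists. Without delta 1, when 19675 regions met the rule, the RFX motif was in 3.74% of delta-only and 3.77% of alpha-only regions, PBX in 4.55% and 3.85%, and AP-1 in 10.7% and 17%. Without delta 2, when 78984 met it, the shares were 2.59% and 3.57% for RFX, 3.49% and 3.67% for PBX, and 8.11% and 16.1% for AP-1. The 610 members strong in both libraries held the RFX motif in 9.02% (6.99 to 11.6%) and the other members in 5.79% (4.88 to 6.87%). For PBX the shares were 10.3% (8.16 to 13.0%) and 6.73% (5.74 to 7.87%), and for AP-1 24.3% (21 to 27.8%) and 17.6% (16.1 to 19.3%). In these 3 motifs the intervals of strong and other members did not overlap, and in the other motifs of the panel they did. The homeodomain core was in 9.84% (7.72 to 12.5%) and 7.29% (6.26 to 8.47%), the HNF1 motif in 11.3% and 10.5%, and the HNF4 motif in 0.656% and 0.888%. Outside promoters the RFX motif was in 6.43% of members and 3.51% of alpha-only regions, and the PBX motif in 8.17% and 4.06%. The AP-1 motif was there in 19.7% of members, 16.6% of alpha-only and 26.1% of all-7 regions, and the RFX motif in 5.26% of all-7 regions, whose interval (4.76 to 5.82%) overlapped that of the members (5.48 to 7.54%).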

How the data were processed

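ATAC-Seq peak lists of 2 alpha, 3 beta and 2 delta libraries were analysed, grouped by their deposited labels. The authors sequenced single-end reads of 50 bp. They used Trimmomatic for trimming, Bowtie2 for alignment to mm10 (mitochondrial DNA left out), Picard for duplicates and a blacklist filter, and MACS2 for a separate peak list per library. Versions and the calling threshold are not given in the sources used here. The deposited lists hold, per peak, a score, the -log10 p and -log10 q within that library, the fold enrichment over local background and the summit. The authors tested read counts per region, which peak lists do not hold, so that test was not repeated.

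Rows that repeat an interval were counted once, with the values of the highest -log10 p, and a percentile is the rank by -log10 p within a list. Regions were classed by any overlap of at least 1 bp with GENCODE vM21 features. The order was promoter-proximal (within 3 kb of any transcript start), untranslated, exonic, intronic, downstream (300 bp) and distal-intergenic. Sequence was read from GRCm38.p6, the build of the lists. Named were all delta marker genes with a member within 50 kb, the 12 members of highest lower percentile in the delta lists, the 10 genes with most members within 10 kb (ties by members per kb), up to 4 genes with most members per other list, and Gm20745. Some results that this rule selects are not reported here. Members and lists were chosen with earlier results of these data known. No test was made, since calls chose the members. Shares have 95% Wilson intervals, which cover counting error only. Python 3.11.15, numpy 2.4.6, pandas 2.3.3 and matplotlib 3.10.9 were used. On simulated lists all 400 planted delta-only regions were found and no other, and the merge was checked against bedtools 2.31.1, which gave the same 834695 regions. Alternatives were stricter peak cut-offs, equal list lengths, a coverage rule, other promoter definitions, other motif windows and leaving out each library.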

Additional observations from a re-analysis of the deposited data

How the results depend on the processing

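With a -log10 q of at least 2 asked of every list the number of members was 2395, with the 50000 strongest peaks per list 2460, with a -log10 p of at least 3 it was 3669, and where a peak had to cover 0.5 of the region 3606. With a -log10 q of at least 2 asked of both delta peaks alone it was 610, with 22.1% promoter-proximal and 36.2% intronic. Leaving out single libraries gave 3087 to 78984 members. The count rose to 4257 without beta 1, to 19675 without delta 1 and to 78984 without delta 2, since the rule then asks fewer lists. Promoter-proximal shares ranged from 14.4% to 22.2%, intronic from 31.4% to 38.6% and distal-intergenic from 36.0% to 51.2% over these omissions, with 14.4%, 31.4% and 51.2% being the values without delta 2. Promoters taken 3 kb upstream alone gave 12.7% promoter-proximal and 42.4% intronic, and protein-coding genes alone gave 13.3%, 35.3% and 48.1% distal-intergenic.

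The recovery of delta 1 regions in delta 2 was 24.1% with a -log10 q of 2 in every list, 14.3% with it in the delta lists alone, 7.77% with it in the alpha and beta lists alone, 5.15% with a -log10 p of 3, 22.4% with 50000 peaks per list, and 3.82% to 4.80% without 1 alpha or beta library. In an alternative chosen after seeing the data, which kept the 4 libraries with the lane mark of the delta libraries (beta 2, beta 3, delta 1 and delta 2), there were 12456 members, 25.1% promoter-proximal and 33.9% distal-intergenic, and recovery was 11.1%. That set holds no alpha library. Of 134 other values, 92 stayed within their limits and 42 moved. With a -log10 q of 2 in every list the RFX motif was in 7.77% of delta-only and 4.07% of alpha-only regions, the PBX motif in 7.85% and 4.07%, and the MAF motif in 18.7% and 26.4%. Without delta 1 the RFX share was 3.74%, against 3.77% in alpha-only regions, and without delta 2 it was 2.59% against 3.57%, so that the lead of delta-only regions was not seen. No paired analysis was possible because the results come from no test. Depth was not set against the calls, since the lists hold no reads, so what depth limits was not measured.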
